A study of Mus musculus with 37 samples.

Results

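T cell receptors are assembled from gene segments, and the variable (V) and joining (J) segments of the alpha, beta, gamma and delta chains were followed through social defeat stress in mouse bone marrow and spleen. The members were chosen by name and by level: genes whose symbol marks a T cell receptor V or J segment and whose listed value was at least 1 in at least 2 of the 37 libraries. The rule kept 174 of the 258 named segments, out of 35885 genes in the table. They comprised 73 of 130 alpha V, 51 of 60 alpha J, 23 of 35 beta V, 14 of 14 beta J, 5 of 7 gamma V, 3 of 4 gamma J, 3 of 6 delta V and 2 of 2 delta J segments. The rule used the listed values, so that the members reach this level is a description and not a finding. Just inside the rule were Trav6d-4, Trav6-4 and Trav13-5, whose second highest values were 1.01, 1.10 and 1.11. Just outside were Trav15-2-dv6-2, Trav6n-5 and Trav7n-4, with 0.990, 0.988 and 0.973.

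All mice were wild-type C57BL/6N, and social defeat was given once per day. Control mice had 0 defeats, and the stressed groups had 1, 4 or 10 defeats; a further group had 10 defeats and then 1 week without intervention, and is called rested here. Cells flushed from the femur gave 3 marrow libraries of controls, 4 of 1 defeat, 3 of 4 defeats, 5 of 10 defeats and 4 of the rested group, and whole spleen gave 4, 2, 2, 6 and 4 libraries in the same order. RNA was polyadenylated RNA of the whole tissue, with no sorting of T cells, and the libraries are called biological replicates, so p-values measure the spread between these samples. Libraries are named here by the mouse codes of the labels (C for control, D for defeated), and it is not known which codes mark the same animal in the 2 tissues.

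A T cell precursor joins a V segment to a J segment, with a D segment between them in the beta and delta chains, and the product is spliced to the constant segment of that chain. Alpha and beta chains pair in most T cells of blood and spleen, and gamma and delta chains pair in a smaller lineage. Because each T cell clone keeps its own V and J choice, the RNA of a segment sums many clones. Assembly takes place in the thymus, while marrow and spleen hold mature T cells, and polyadenylated transcripts can also start at segments that are not joined.

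The segments lie in 3 loci of the GRCm38 build, with GENCODE M21 annotation. The named alpha V segments, members or not, lie at chr14:52427928-53977678 and the named alpha J segments at chr14:54155005-54218842, ahead of the alpha constant gene Trac at chr14:54220521-54224206. The delta segments lie inside the same locus. The named beta V segments lie at chr6:40891229-41558452, a range that runs past the constant gene Trbc2 at chr6:41546730-41548352. Beta J members lie at chr6:41533864-41543856, ahead of Trbc2, and the gamma segments lie on chromosome 13. V transcripts had a median length of 381 bases in alpha and 368 in beta, whereas alpha J members had 34 to 72 bases and beta J members 46 to 53. Of the members, 6 are annotated as pseudogenes, among them Traj14 and Trbj2-6.

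The J segments on which the results turn are given whole, 5′ to 3′ on the plus strand, from the GENCODE M21 transcripts. Capitals mark TTCGG or TTTGG followed by any 4 bases and GG, a stretch that can encode the phenylalanine-glycine motif shared by J segments. Trbj2-1 (chr6:41542754-41542803), Trbj2-7 (chr6:41543810-41543856) and Trbj1-1 (chr6:41533864-41533911) had the highest mean values of the beta J segments.
Trbj2-1: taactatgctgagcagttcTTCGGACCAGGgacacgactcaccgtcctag
Trbj2-7: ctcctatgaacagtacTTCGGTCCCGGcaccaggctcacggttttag
Trbj1-1: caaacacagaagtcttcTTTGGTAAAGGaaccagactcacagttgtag
Traj2 (chr14:54217836-54217901), Traj3 (chr14:54217292-54217357), Traj4 (chr14:54216291-54216353) and Traj6 (chr14:54212688-54212749) lie close to Trac and were, with Traj32, the alpha J segments with the largest fitted falls after 10 defeats in spleen.
Traj2: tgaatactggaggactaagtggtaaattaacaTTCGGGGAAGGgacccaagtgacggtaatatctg
Traj3: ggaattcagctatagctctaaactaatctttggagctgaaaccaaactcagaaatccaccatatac
Traj4: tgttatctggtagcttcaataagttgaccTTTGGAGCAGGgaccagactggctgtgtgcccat
Traj6: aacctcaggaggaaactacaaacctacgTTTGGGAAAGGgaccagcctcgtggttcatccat
Traj18 (chr14:54200777-54200842) is the J segment of the invariant receptor of natural killer T cells, and Traj32 (chr14:54186101-54186166) lies farther from Trac. Traj14 (chr14:54205111-54205144) is a pseudogene with the only rise after 1 defeat when all libraries were used.
Traj18: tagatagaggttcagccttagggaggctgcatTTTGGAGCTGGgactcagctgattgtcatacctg
Traj32: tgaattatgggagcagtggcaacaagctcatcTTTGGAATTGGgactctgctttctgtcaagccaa
Traj14: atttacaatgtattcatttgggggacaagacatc
Traj3 and Traj14 have no capitals because neither form of the motif was found in them. The motif was found on the plus strand of 54 of the 70 J members (77.1%) and of 56 of all 80 named J segments (70%), against 9 of 178 named V segments (5.06%). On the other strand it was found in 0 J segments and in 3 V segments (1.69%). None of the alpha, beta or delta J members shares a stretch of 31 bases with another segment, and 2 of the 3 gamma J members share none.

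For V segments the last 60 bases are given, since these lead to the joint. Capitals mark TGTGC, which can hold the codon of the conserved cysteine that ends the V region. Trbv13-2 (chr6:41121396-41121832) had the highest mean value of the beta V segments, Trbv17 (chr6:41163062-41163556) fell in both tissues, Trdv2-2 (chr14:53960944-53961602) differed between the tissues, and Trav11d (chr14:52824357-52824912) can form the invariant receptor with Traj18.
Trbv13-2: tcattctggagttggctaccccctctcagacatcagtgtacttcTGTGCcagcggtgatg
Trbv17: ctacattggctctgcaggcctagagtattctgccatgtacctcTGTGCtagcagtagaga
Trdv2-2: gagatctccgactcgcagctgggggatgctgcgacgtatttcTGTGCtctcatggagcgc
Trav11d: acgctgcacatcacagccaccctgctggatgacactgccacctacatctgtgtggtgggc
TGTGC stood in the last 20 bases of 86 of the 104 V members (82.7%) and of 134 of all 178 named V segments (75.3%), and in 0 on the other strand. It was not found in the end of Trav11d. Many alpha V segments are near copies of each other. In 58 of the 73 alpha V members more than 50% of the 31-base stretches also occur in another segment, and in 24 all of them do, so the counting could split their reads. This held for 0 of the 23 beta V members, 18 of which shared no such stretch.

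Values are listed per gene and library on the authors' scale and not as counts. Column totals ran from 657920 to 2652300, and steps between low values gave an estimated depth of 3.61 to 34.9 M reads, lowest in single-defeat spleen D16; single-defeat spleen D15 had 7.92 M. For J segments a single read was worth a value of 1.33 to 24.9. Of the 680 J values above 0, 252 (37.1%) were 1 read, so J segments are also given as recovered reads per M. Reads were recovered only for J segments with a single transcript, which leaves out Trbj1-3, Trbj1-7, Traj48, Traj49, Traj57 and Traj59. In a V segment of 350 bases a value of 1 stood for an estimated 0.934 to 9.17 reads. In 10-defeat marrow D6, D7 and D9 it stood for 1.53, 1.49 and 2.24, so V values of 0 there rest on few reads. In 5 spleen libraries listed values fell more steeply with gene length than in the others: D6, D7, D9 and D10 of 10 defeats and D2 of the rested group. Their slopes of log2 value on log2 length were -0.641 to -0.622, against -0.551 to -0.356 in the other 13 spleen libraries. Haemoglobin genes made up 45.4% to 58.8% of summed values in these 5 and 1.74% to 39.8% in the other spleen libraries. The tissues matched their labels: a list of 12 neutrophil genes summed to 56947 to 65929 in control marrow and to 220 to 473 in control spleen.

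Alpha and beta V segments made up a small part of either tissue, and the part shrank with repeated defeat. In control marrow the alpha V members summed to 11.8, 12.5 and 15.2, and in control spleen to 139, 128, 93.2 and 117. Beta V members summed to 25.6, 23.6 and 24.6 in control marrow and to 344, 385, 245 and 228 in control spleen. The spleen mean was 9.08 times the marrow mean for alpha V and 12.2 times for beta V, but only 2.40 times for gamma V and 1.48 times for delta V. In whole tissue, fewer T cells and less receptor RNA per T cell cannot be told apart.

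After 10 defeats the summed alpha V value of marrow was 3.45, 2.90, 6.97, 5.68 and 6.54, and the beta V value was 8.79, 6.42, 11.3, 13.997 and 11.5. Every one of these lay below every control. The 4-defeat libraries lay below the controls as well, with 8.19, 2.46 and 6.72 for alpha V and 13.5, 7.37 and 9.51 for beta V. After 1 defeat the spread reached from 6.79 to 14.2 for alpha V and from 12.9 to 24.3 for beta V, overlapping the controls in both. Rested marrow held 10.4, 9.68, 6.71 and 6.38 for alpha V and 16.7, 14.5, 13.4 and 15.1 for beta V. All rested libraries lay below the lowest control. They overlapped the 10-defeat group, in D3 and D8 for alpha V and in D3 for beta V.

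In spleen the alpha V sums after 10 defeats were 58.1 (D5), 12.6 (D6), 23.7 (D7), 87.1 (D4), 19.0 (D9) and 22.6 (D10), and the beta V sums in the same order were 127, 104, 144, 192, 211 and 167. All 6 lay below all controls for both chains. The 4 lowest alpha V sums were those of the 4 libraries with the steep fall with length, whereas 3 of these 4 had a higher beta V sum than D5. Rested spleens held 66.7, 27.7, 70.5 and 95.8 for alpha V and 231, 257, 150 and 248 for beta V, which overlapped the controls. After 1 defeat the sums of both libraries lay within the control range for both chains. After 4 defeats they lay below it, at 89.6 and 86.8 for alpha V and 145 and 219 for beta V.

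**Figure D1:**
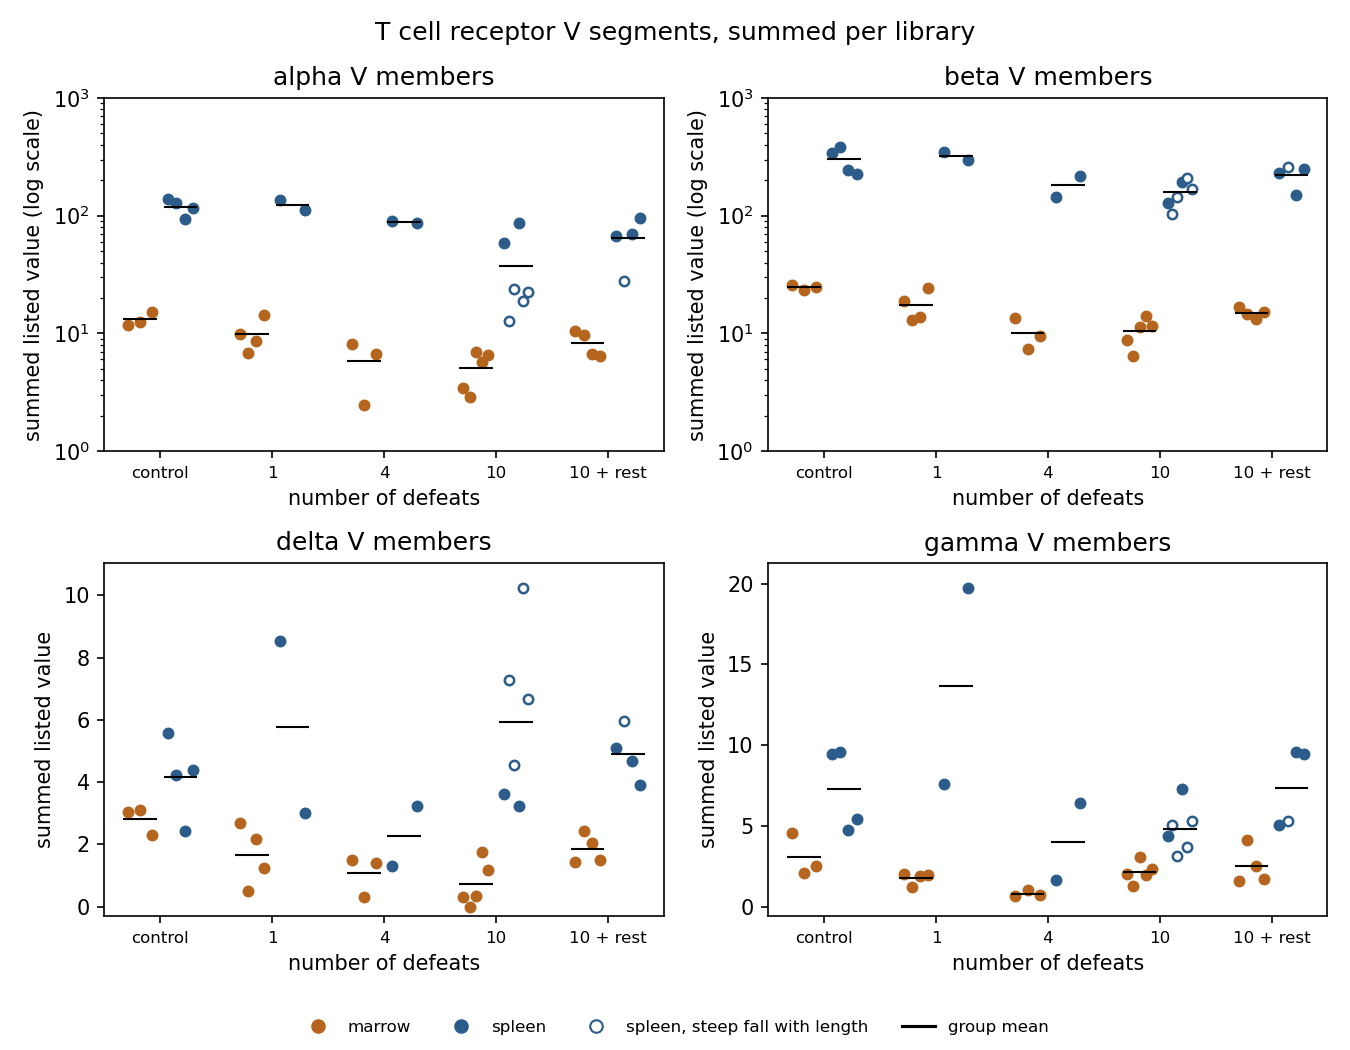
Summed listed value of the V members of each chain (y axis, log scale for alpha and beta) by number of defeats (x axis); each point is a library, bars are group means, and open symbols are the 5 spleen libraries with a steep fall with gene length. Alpha and beta V sums after 10 defeats lie below all controls in both tissues, while the delta V mean falls from 2.81 to 0.720 in marrow and is 4.15 and 5.93 in spleen.

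Tested gene by gene, marrow could show falls of beta V but not of alpha V segments, since all alpha V members were too low to be tested there. Of the 174 members 36 were tested in marrow, the rest being too low, and 36 members were at 0 in every marrow library. After 10 defeats 13 of the 36 fell and 0 rose (limma, Benjamini-Hochberg adjusted p under 0.05), against 28.3% of all tested genes lower. The 13 comprised 7 of 12 beta V, 3 of 13 beta J, 1 of 4 alpha J, 1 of 3 gamma J and the single delta V tested. The median log2 change of the 36 was -1.05, against -0.13 for all tested genes. The count was 8 without control C2 and 7 without control C4. With no filter on low values it was 23, but more members than the 36 were then tested. The share of all genes called in that fit is not given here, so 23 cannot be set against 13.

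Trbv17 held 1.91, 1.26 and 1.51 in control marrow and 0.279, 0, 0, 0.839 and 0.268 after 10 defeats. The groups did not overlap, and the log2 change was -1.03 (SE 0.24, limma adjusted p = 0.00271). Trbv13-1 held 1.98, 1.95 and 1.56 in controls and 0, 0, 1.39, 0.578 and 0.831 after 10 defeats, a log2 change of -0.94 (adjusted p = 0.0494). Trbv16 and Trbv1 also fell, by 0.77 and 0.64 on the log2 scale. Trbv17 kept its call whichever library was left out. Trbv13-1 lost its call without any of C1, C2, C4, D5, D6 or D9, Trbv16 without C1, C4, D6, D7 or D10, and Trbv1 without C2, C4, D6, D7 or D9, with adjusted p of 0.0534 to 0.206. Trbv13-2, the beta V segment with the highest mean, did not pass: it held 2.69, 3.83 and 3.84 in controls and 2.45, 2.49, 2.61, 2.92 and 2.18 after 10 defeats. Its log2 change was -0.33 (SE 0.20, adjusted p = 0.184). As a share of summed beta V values Trbv13-2 was 14.1% ± 3.15 (SD, n = 3) in control marrow and 25.9% ± 7.90 (n = 5) after 10 defeats, and Trbv17 was 6.31% ± 1.07 and 2.30% ± 2.50. These shares were not tested.

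After 4 defeats 5 of the 36 tested members fell in marrow and 0 rose, a share near the 13% of all tested genes that were lower. The median log2 change of the 36 was -0.90, against -0.11 for all tested genes. The 5 were Trbj1-2, Trbj1-4, Trbv13-1, Trbv17 and Trdv2-2. Trbv17 had 0.473, 0.337 and 0 (log2 change -1.02, SE 0.27, adjusted p = 0.0152), and Trbv13-1 had 0, 0 and 0.594. Trbj1-4 had 11 reads in the controls together (3, 5 and 3) and 0 in all 3 libraries of 4 defeats. Over the pooled reads it was at least 3.08-fold lower, against a floor of 3 reads over the group. The count of 5 was 0 without 4-defeat library D14, 1 without D12 or without control C1 or C4, and 3 without C2. Of these 5, 4 (80%) were among the 13 of 10 defeats (30.8%), and both comparisons share their controls.

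Single defeat and rest gave no call against the marrow controls. After 1 defeat 0 of 36 members passed (0.00804% of all tested genes did), with 5 at an unadjusted p under 0.05. In the rested group 0 of 36 passed (0% of all tested genes), with 6 at an unadjusted p under 0.05. Rested marrow against 10 defeats gave 1 rise, of Trdv2-2, and 0 falls, where 13.8% of all tested genes rose. Without 10-defeat library D9 the count of rises was 4, and without rested library D8 it was 2.

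In spleen alpha V segments made up 47 of 81 falls with all libraries, and 2 of 10 without the steep-slope libraries. There 173 members were tested. After 10 defeats 81 fell and 0 rose, a share only a little above the 41.9% of all tested genes that were lower. The median log2 change of the members was -0.82 and that of all tested genes was -0.36. Scaling libraries to equal totals moved the median of all genes to -0.85, and scaling by median ratios moved it to 0.01. Of the 81, 47 were among 73 alpha V, 15 among 51 alpha J, 12 among 22 beta V, 5 among 14 beta J, 1 among 3 delta V and 1 among 2 delta J segments, with 0 among 5 gamma V and 3 gamma J. Among the alpha J falls, Traj18, Traj24, Traj35 and Traj36 had reads in control spleen only. They met the membership rule through controls alone and could only be called lower. Without the 5 steep-slope libraries, which left D4 and D5, 10 of 168 members fell and 0 rose. That share was below the 15.2% of all tested genes that were lower, and 8 of the 10 were among the 81. The 10 comprised 3 alpha J, 3 beta J, 2 beta V and 2 alpha V segments, the last being Trav6d-7 and Trav6n-7, which had the same fitted change and are named after their values were seen.

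Trbv13-2 had 44.1, 51.7, 30.1 and 27.1 in control spleen. After 10 defeats its lowest value was 10.1, its median 18.1 and its highest 25.8, so that all 6 libraries lay below all controls. The log2 change was -1.07 (SE 0.26, limma adjusted p = 0.00331), and Trbv13-2 fell without the steep-slope libraries too, by 0.97; with median-ratio scaling it did not pass (-0.62, adjusted p = 0.0646). Trbv17 had 11.4, 16.1, 10.8 and 7.80 in controls and 1.81 to 6.26 after 10 defeats (log2 change -1.31, SE 0.30, adjusted p = 0.00246). Trbv16 and Trbv13-1 fell by 1.00 and 0.98. Without the steep-slope libraries Trbv17, Trbv16 and Trbv13-1 had -0.98, -0.89 and -0.72 and did not pass, with adjusted p of 0.0744, 0.0569 and 0.189. As a share of the summed beta V values Trbv13-2 moved little and Trbv17 was lower, and these shares were not tested. Trbv13-2 was 12.6% ± 0.66 (SD, n = 4) in control spleen and 11.2% ± 1.37 (n = 6) after 10 defeats, and Trbv17 was 3.84% ± 0.55 and 2.57% ± 0.62.

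Among alpha V segments the highest means over all 37 libraries belonged to Trav14d-1, Trav14n-1 and Trav9-1. Trav14d-1 and Trav14n-1 are identical over the 415 bases compared and had the same value in every library, so their reads cannot be told apart. Their listed value was 2.86, 3.53, 2.98 and 3.09 in control spleen. After 10 defeats it was 0.672 to 2.38, below all controls (log2 change -0.71, SE 0.26, adjusted p = 0.0272). Trav9-1 had 2.95, 6.43, 2.49 and 2.78 in controls and 0 to 2.64 after 10 defeats, which overlapped the lowest control (log2 change -1.17, SE 0.30, adjusted p = 0.00494). Without the steep-slope libraries neither passed, at -0.56 and -0.47 (adjusted p = 0.211 and 0.263), and Trav14d-1 did not pass without C2, C4, D6 or D7 either, nor with quantile normalization or median ratios. Of the V members, 11 pairs, 22 segments in all, were identical from their 3′ ends, and 30 pairs matched at 97% or more, so counts of alpha V members called do not count independent segments.

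J segments were also lower after 10 defeats when counted as reads. Alpha J reads per M were 3.96, 5.80, 1.21 and 3.93 in control spleen and 0.476, 0.196, 0.317, 0.949, 0.433 and 0.208 after 10 defeats, with no overlap. Rested spleens had 0.703, 0.345, 0.764 and 1.55, of which only D8 reached the lowest control. The single-defeat spleens had 7.196 and 7.199, above all controls. Beta J reads per M were 15.6, 21.989, 10.987 and 17.98 in control spleen, and after 10 defeats the lowest was 2.06, the median 6.41 and the highest 11.1. Library D9 thus overlapped the lowest control. In marrow beta J reads per M were 3.31, 3.75 and 2.57 in controls, 1.05, 0, 0.306, 2.02 and 0.858 after 10 defeats and 2.27, 1.12, 1.85 and 1.28 in the rested group.

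**Figure D2:**
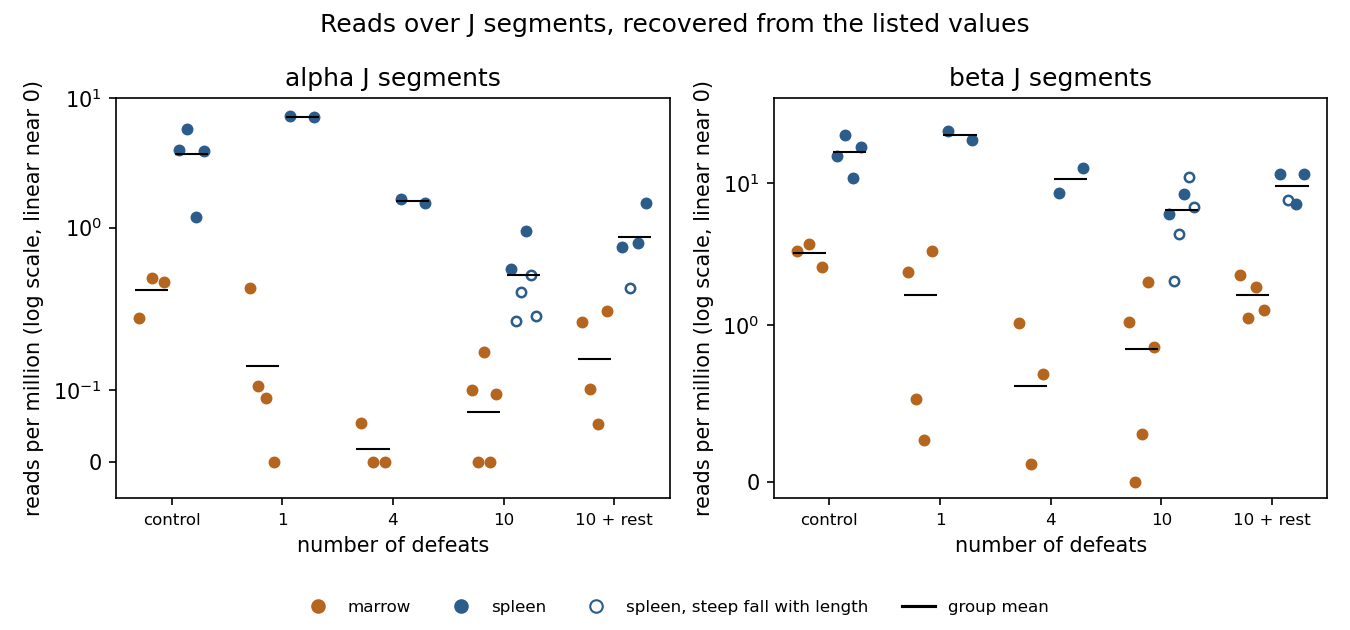
Reads over alpha J and beta J segments per M estimated reads (y axes, log scale that is linear near 0) by number of defeats; each point is a library, bars are group means, and open symbols are the 5 steep-slope spleen libraries. Alpha J reads in spleen fell from a mean of 3.73 per M in controls to 0.430 after 10 defeats, and the highest 10-defeat library, D4 at 0.949, lies below the lowest control at 1.21.

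Of the 5 alpha J segments with the largest fitted falls in spleen after 10 defeats, 4 lie within 7772 bases of Trac. Traj3, whose end is 3164 bases ahead of the start of Trac, had listed values of 19.2, 16.4, 11.1 and 12.8 in control spleen. After 10 defeats it had 2.02, 0, 4.89, 1.39, 0 and 0, and in the rested group it was listed at 0 in all 4 libraries. The 10-defeat libraries lay below all controls (log2 change -3.06, SE 0.42, limma adjusted p = 0.000123; -2.53 without the steep-slope libraries). Pooled reads of Traj3 were 25 in controls, 3 after 10 defeats and 0 in the rested group, at least 7.94-fold lower in the last.

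Traj4 had 11.5, 8.68, 3.71 and 20.1 in control spleen and was at 0 in all 6 10-defeat libraries. Its pooled reads were 19 against 0, at least 7.77-fold lower; the fitted log2 change of -3.39 depends on the pseudocount. Traj6 had 11.7, 17.9, 3.60 and 16.1 in controls and 1.42 in D4 as its only value above 0 after 10 defeats (log2 change -3.34, adjusted p = 0.000254). Traj2 had 9.62, 40.96, 7.42 and 6.401 in controls and, after 10 defeats, 1.39 in D4 only (log2 change -3.48, adjusted p = 0.000725). Traj32, far from Trac, had 16 reads in the controls and 1 after 10 defeats, a log2 change of -3.08. Traj4 and Traj6 also passed without the steep-slope libraries, and Traj2 and Traj32 did not (adjusted p = 0.0730 and 0.0944). These segments had few reads, and a segment at 0 in a library was not detectable at that depth.

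The 6 alpha J segments nearest to Trac, Traj1 to Traj6, took 81 of 276 alpha J reads (29.3%) in control spleen. They took 17 of 83 (20.5%) after 1 defeat, 9 of 32 (28.1%) after 4, 6 of 49 (12.2%) after 10 and 5 of 59 (8.47%) in rested spleen. In control marrow they took 11 of 16 reads (68.8%). The reads of a group are pooled over libraries of unequal depth, the grouping by distance was chosen after the values were seen, and the shares were not tested.

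**Figure D3:**
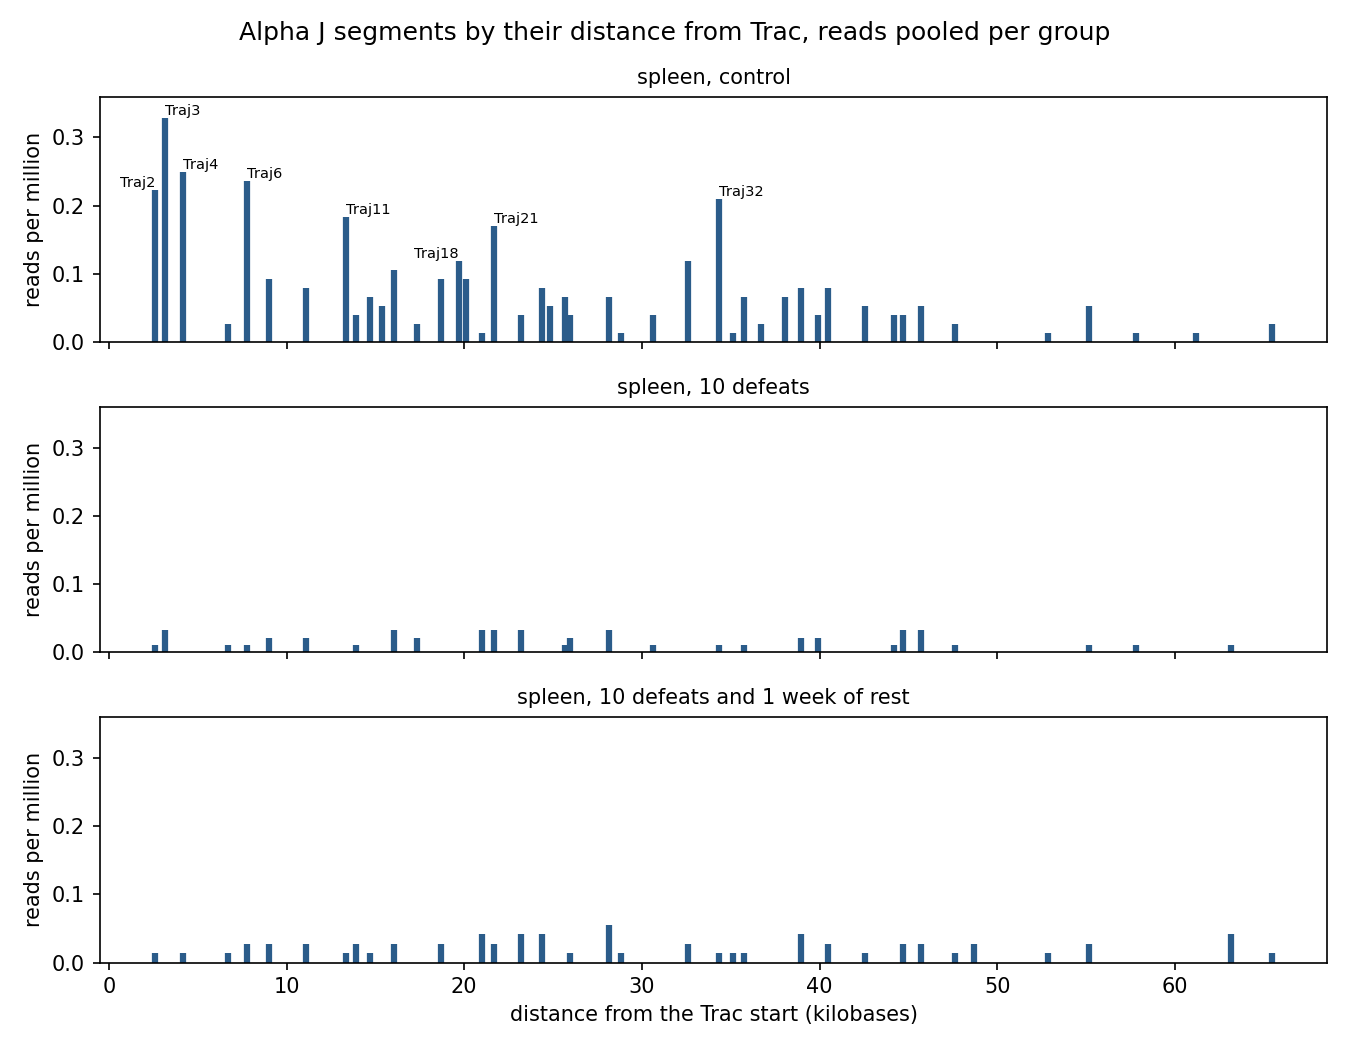
Pooled reads per M of each alpha J segment in spleen (y axis) against its distance from the start of Trac in kilobases (x axis), for controls, 10 defeats and 10 defeats with 1 week of rest. In controls Traj2, Traj3, Traj4 and Traj6 stand at the left with 17, 25, 19 and 18 reads; after 10 defeats they have 1, 3, 0 and 1.

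In rested spleen the members fell about as often as genes at large. Against controls 7 of 173 members fell and 0 rose, a share near the 4.24% of all tested genes that were lower, with a median log2 change of -0.48 against -0.18 for all genes. The 7 were Traj2, Traj3, Traj4, Traj6, Traj18, Traj32 and Trbj1-7, and all 7 were among the 81 of 10 defeats, with which they share the controls. Traj18 met the membership rule through controls alone and could only be called lower. Trbj1-7 had 17.3, 45.2, 25.8 and 27.8 in control spleen and 1.89, 0, 0 and 9.63 in the rested group (log2 change -3.59, adjusted p = 0.0280), a call that did not hold without C1, C2, C4, D1, D2 or D3 (0.0560 to 0.104). The count was 14 without control C3, 3 without C2 or rested D2, and 4 without C1 or C4. Without the steep-slope libraries it was 4 lower and 1 higher, against 11% of all genes lower. Rested spleen against 10 defeats gave 0 calls of 173 (0.567% of all genes), with 17 at an unadjusted p under 0.05; without 10-defeat library D4 6 members rose.

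Early groups of spleen gave almost no call with all libraries. Without the steep-slope libraries Traj3, Traj14, Trav4-2, Trav9d-1, Trbv4 and Trdv4 rose after 1 defeat, and Trav13-1 and Trav9-4 fell. The share of all genes called in that fit is not given here. After 4 defeats 0 of 173 members passed (0.043% of all genes), with 27 at an unadjusted p under 0.05; without library D14 7 passed, and without control C3 or without the steep-slope libraries 1 did, which in the latter was Traj3. After 1 defeat Traj14 rose, where 0.624% of all tested genes did. Its listed values were 3.79, 0, 0 and 3.15 in controls and 10.6 and 25.2 after 1 defeat (log2 change 3.05, SE 0.51, adjusted p = 0.00852). Those values were rounded to 3, 0, 0 and 1 reads in controls and 1 read in each single-defeat library. The worth of a read came from longer J segments (1.45 in C1), so the 3 reads of C1 are uncertain and could be 2. A read of Traj14 thus stood for a higher listed value in both single-defeat libraries than in controls C1 and C4. The call was lost without D16 (adjusted p = 0.363) and with a pseudocount of 0.1 (0.127) or only the 2 groups compared (0.0875).

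Beta J segments that fell in marrow after 10 defeats were Trbj1-7, Trbj1-4 and Trbj2-6. Trbj1-7 had 8.41, 14.3 and 18.3 in controls and 3.01, 0, 0, 0 and 0 after 10 defeats (log2 change -3.41, SE 1.04, adjusted p = 0.0151; 0.0590 without C4). In spleen the same segment had 7.89, 0, 0, 0, 0 and 9.27 after 10 defeats, below all controls (log2 change -3.74, SE 0.83, adjusted p = 0.00198), and without the steep-slope libraries it did not pass (-3.25, 0.0611). Trbj2-6, a pseudogene, had 11.3, 18.3 and 11.02 in control marrow and 6.23 in 1 of 5 10-defeat libraries. Trbj1-4 did not pass in marrow without any 1 of the controls, D6, D7 or D9 (adjusted p = 0.0508 to 0.0872). The most read of the beta J segments with recovered reads did not pass in either tissue. Trbj2-7 had 241 of the beta J reads of control spleen (19.8%), and Trbj2-1 had 165 (13.5%). The log2 changes of Trbj2-7, Trbj2-1 and Trbj1-1 after 10 defeats in spleen were -0.54, -0.86 and -0.79, with adjusted p of 0.237, 0.104 and 0.153. Trbj2-7 passed without control C2 (-1.08, adjusted p = 0.00854), Trbj2-1 and Trbj1-1 without D9 (0.0493 and 0.0478), and all 3 with equal totals. Trbj2-1 had 73.9 to 301 in controls and 39.6 to 152 after 10 defeats.

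The delta V segment Trdv2-2 fell in marrow and did not fall in spleen. In marrow it had 2.60, 2.52 and 2.29 in controls, 1.14, 0.306 and 1.39 after 4 defeats, 0, 0, 0, 0 and 0.980 after 10, and 1.09, 1.64, 1.81 and 1.51 in the rested group. The 10-defeat group lay below the controls and below the rested group with no overlap. The log2 change was -1.60 after 10 defeats (SE 0.27, limma adjusted p = 0.000348), -0.88 after 4 (SE 0.30, adjusted p = 0.0466), and 1.12 from 10 defeats to rest (SE 0.25, adjusted p = 0.00650). The call after 4 defeats was lost when any of the controls C1, C2 or C4, or D12 or D14, was left out, with adjusted p of 0.0512 to 0.216, and with each other scaling, pseudocount or filter tried (0.0675 to 0.201). The rested group against controls did not pass, at -0.47.

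In spleen Trdv2-2 had 2.31, 3.16, 1.05 and 2.09 in controls and 2.99, 6.60, 3.49, 1.66, 6.44 and 5.36 after 10 defeats. The libraries above all controls were the 4 with the steep fall with length, while D5 and D4 lay within the control range. The log2 change of 0.73 (SE 0.39, adjusted p = 0.113) did not pass. It did without D4 (0.92, adjusted p = 0.0417), with quantile normalization (1.21, 0.0195) and with median-ratio scaling (1.10, 0.0294). The difference of the 10-defeat effect, spleen minus marrow, was 2.33 on the log2 scale (SE 0.50, adjusted p = 0.000486), and 1.69 (adjusted p = 0.0239) without the steep-slope libraries. Of the 31-base stretches of Trdv2-2, 60.2% also occur in another segment.

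**Figure D4:**
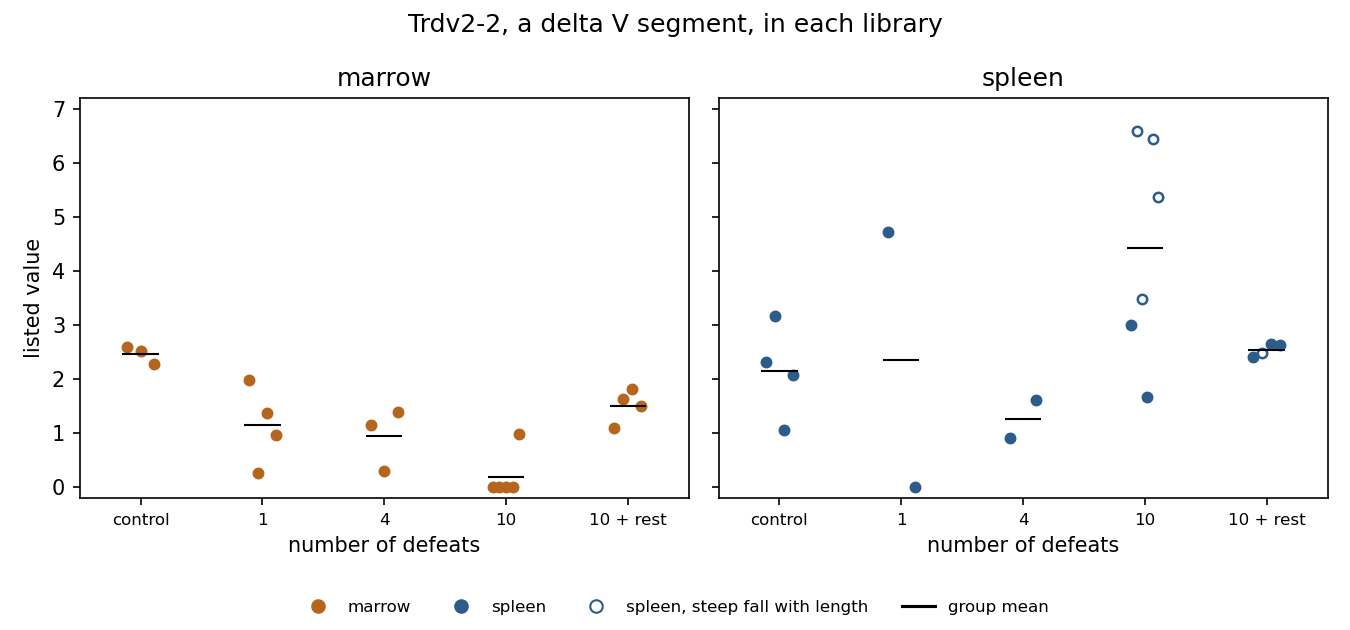
Listed value of Trdv2-2 (y axis) by number of defeats (x axis) in marrow (left) and spleen (right); each point is a library, bars are group means, and open symbols are the 5 steep-slope spleen libraries. Marrow falls from 2.29 to 2.60 in controls to 0 in 4 of 5 10-defeat libraries and stands at 1.09 to 1.81 after rest, while spleen holds 1.05 to 3.16 in controls and 1.66 to 6.60 after 10 defeats.

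The other delta and gamma segments were close to the limit of detection. Trdv1 had 2.23, 0.459, 0.918 and 1.78 in control spleen and 0.547, 0, 0, 0.799, 0.402 and 0.442 after 10 defeats, and passed (log2 change -0.75, SE 0.25, adjusted p = 0.0173), but not without control C1 (0.0739) or C4 (0.0620) or with quantile normalization (0.0993). Trdv4 had 0.445 to 1.03 in control spleen and 0.0875 to 3.38 after 10 defeats, with no call. Trdj1, a delta J segment, had 21.2, 76.2, 14.9 and 8.31 in control spleen and at most 8.13 after 10 defeats (log2 change -2.66, adjusted p = 0.0219; 0.0854 without control C2). Without the steep-slope libraries neither passed, with adjusted p of 0.351 and 0.185. Of the 5 gamma V members 0 passed in any comparison, and only 2 were tested in marrow. Their sum in marrow was 2.10 to 4.53 in controls, 0.680 to 1.00 after 4 defeats and 1.28 to 3.04 after 10. The gamma V segments Trgv2 and Trgv4 had log2 changes of -0.69 and -0.63 after 4 defeats, with adjusted p of 0.0689 and 0.0646. Trgj2, called lower in marrow after 10 defeats, had 2, 1 and 0 reads in the controls and 0 in all 5 libraries of 10 defeats, and its call was lost without C1 or C2.

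Segments of the invariant receptors were at the edge of what the depth shows. Natural killer T cells of mice use Trav11 or Trav11d with Traj18, most often beside Trbv13-2, Trbv29 or Trbv1. Traj18 had 4, 3, 0 and 2 reads in control spleen, at listed values of 5.50, 24.6, 0 and 4.27, and 0 reads in every other library of either tissue. Traj18 thus met the membership rule through control spleen alone and could only be lower elsewhere, so its falls are a description and not support. Pooled, it was at least 3.68-fold lower after 10 defeats and at least 2.86-fold lower in the rested group. Trav11d had 3.56, 0.438, 2.46 and 2.93 in control spleen and 0.399, 1.05, 0.519, 0, 0 and 0.846 after 10 defeats (log2 change -1.12, SE 0.34, adjusted p = 0.0106), and the groups overlapped through control C2; without the steep-slope libraries adjusted p was 0.0575. Trav11 was near 0 in most libraries but stood at 3.002 in 10-defeat D4 and 3.35 in rested D3, where Trav11d was at 0. Every 31-base stretch of either also occurs in another segment, so the counting could split their reads. The fitted change of Trav11d, with or without the steep-slope libraries, counted D4 as 0. The Trav11 value of D4 lay within the control range of Trav11d. How much of the Trav11d change reflects the split of reads was not tested. Trbv29 and Trbv1 did not pass in spleen, with log2 changes of -0.63 and -0.57 and adjusted p of 0.0788 and 0.0869; both passed with equal totals (0.0140 and 0.0196). Traj33, the J segment of mucosal-associated invariant T cells, had 1 read in each of 3 spleen libraries and 0 elsewhere, and its V partner Trav1 did not meet the rule.

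The constant genes and the CD3 complex, whose chains carry the receptor to the cell surface and pass on its signal, were lower in part. Among those tested, Trac, Trbc1, Trbc2, Trdc, Cd3e and Cd247 fell in marrow after 10 defeats, and Cd3d and Cd3g did not pass. Neither Trbc1 (adjusted p = 0.0577 to 0.0750) nor Cd3e (0.0600 to 0.111) passed when any 1 of the controls or D6 was left out, and Cd3e did not without D5 (0.0597). The gamma constant genes Trgc1, Trgc2 and Trgc4 had log2 changes of 0.35, -0.10 and 0.22 there and did not pass, with adjusted p of 0.204, 0.703 and 0.380. In spleen Trgc1 had 2.98 to 4.17 in controls and 3.26 to 17.8 after 10 defeats (log2 change 0.64, adjusted p = 0.226; -0.09 without the steep-slope libraries). A list of 28 receptor and signalling genes had 25 tested in marrow, of which 18 fell after 4 defeats, and 17 fell and 1 rose after 10. In spleen 24 of 27 fell after 10 defeats, and 17 did without the steep-slope libraries. Trac had 11.6, 11.3 and 15.5 in control marrow and 3.81, 3.29, 6.12, 6.52 and 8.63 after 10 defeats (log2 change -1.10, SE 0.27, adjusted p = 0.00426). The coreceptor gene Cd8a had 4.01, 4.23 and 3.63 in control marrow and 1.03 to 2.11 after 10 defeats (log2 change -1.04). Trbc2 had 23.7, 22.0 and 23.7 in control marrow and 7.03 to 18.4 after 10 defeats (log2 change -1.03, adjusted p = 0.0139). Trdc, the delta constant gene, fell in marrow by 0.38 after 10 defeats and in spleen by 0.75, the latter not without the steep-slope libraries (-0.42, adjusted p = 0.170) and neither with quantile normalization (adjusted p = 0.774 and 0.110). Of 17 genes of alpha-beta T cells 10 were tested in marrow, of which 7 fell and 1 rose after 10 defeats. Their summed value of 235 to 254 in controls overlapped the 235 to 287 after 10 defeats. Of 14 tested genes of natural killer and innate lymphoid cells 9 fell and 1 rose, and their sums overlapped too (129 to 150.2 and 122 to 179). The 28 receptor and signalling genes did not overlap in marrow, at 200 to 207 in controls and 108 to 172 after 10 defeats. Nor did a list of gamma-delta T cell genes, at 47.8 to 57.2 and 11.6 to 19.8, with 4 of 8 tested lower. In spleen the alpha-beta sums were 439 to 548 in controls and 73.1 to 330 after 10 defeats. There 15 of 16 tested fell, and 11 did without the steep-slope libraries. Other lists moved beside these, and in both tissues 12 of 12 mature B cell genes fell after 10 defeats. Neutrophil genes rose (12 of 12 in marrow, 11 of 12 in spleen), and erythroid genes fell in marrow (8 of 10) and rose in spleen (9 of 10). Without the steep-slope libraries 5 of 12 mature B cell genes fell in spleen, and 9 of 12 neutrophil and 5 of 10 erythroid genes rose. Over all tested genes 28.3% fell in marrow and 41.9% in spleen, and 15.2% in spleen without those libraries. Summed neutrophil values were 220 to 473 in control spleen and 1268 to 90089 after 10 defeats, and mature B cell values were 2952 to 3220 and 402 to 2207. Their part in the falls of the receptor segments was not tested.

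The chains did not keep their ratio in the steep-slope libraries. Trac in spleen had 166, 125, 117 and 124 in controls and 59.8, 1.97, 23.5, 91.7, 4.05 and 16.4 after 10 defeats, a log2 change of -2.87 (SE 0.77, adjusted p = 0.00565) that was -0.82 (adjusted p = 0.0195) without the steep-slope libraries. Trbc2 had 330, 343, 285 and 228 in controls and 128, 86.6, 188, 171, 215 and 246 after 10 defeats, a log2 change of -0.84 (SE 0.29, adjusted p = 0.0230). Trbc2 did not pass with median-ratio scaling (-0.36, adjusted p = 0.358) or without control C1 or C2 (0.0612 and 0.0632). The ratio of Trac to Trbc2 was 0.0188 to 0.125 in the 5 steep-slope libraries and 0.247 to 0.740 in the other spleen libraries. The ratio of summed alpha V to beta V was 0.0898 to 0.164 in the 5 and 0.289 to 0.620 in the others. Cd3e, also a chain of the complex, had 44.7 to 58.4 in control spleen and 2.32 and 3.66 in D6 and D9, whereas Cd3d had 36.8 to 74.1 in controls and 24.5 and 43.3 in these libraries. Haemoglobin share and slope with length move with these ratios, and their part was not tested.

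**Figure D5:**
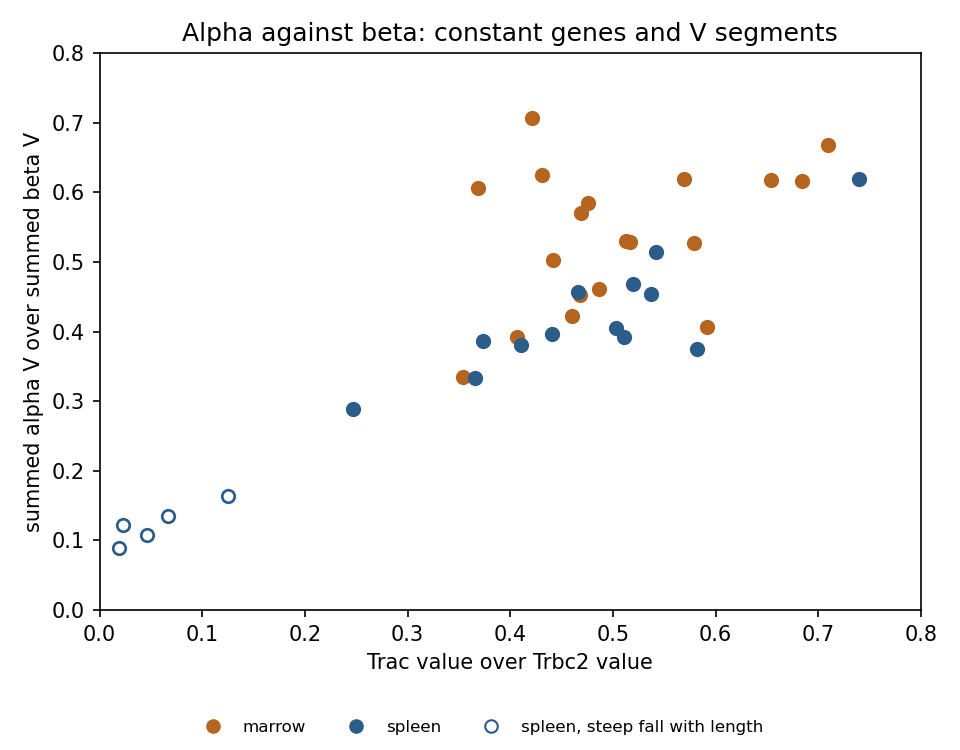
Ratio of summed alpha V to summed beta V values (y axis) against the ratio of Trac to Trbc2 (x axis); each point is a library, in orange for marrow and blue for spleen. The 5 open symbols, the steep-slope spleen libraries, reach at most 0.164 on the y axis and 0.125 on the x axis, apart from all other libraries.

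The 10-defeat effect was set against itself in the 2 tissues in a model of all 37 libraries. Of 174 members 36 had a lower and 1 a higher effect in spleen than in marrow, against 43.1% of all tested genes called in either direction. The 36 comprised 23 of 73 alpha V and 13 of 51 alpha J segments, with 0 of 23 beta V and 0 of 14 beta J, and the 1 was Trdv2-2. Without the steep-slope libraries 7 members were called, against 32.1% of all genes, and leaving out single libraries gave 23 to 49, with 23 without marrow control C1 and 24 without marrow control C2 or spleen control C4. The largest differences among alpha J segments were those of Traj32 (-3.08), Traj6 (-2.73), Traj4 (-2.51), Traj18 (-2.44) and Traj40 (-2.30). Of the 36, 34 were under 1 in every control marrow library, 13 of these at 0, so that on this scale they had little or no room to fall in marrow. The 36 calls therefore do not show a difference between the tissues in the response of these segments.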

How the data were processed

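Kallisto 0.46.1, sleuth and GRCm38 are named in the submitters' processing notes, with no roles. Libraries were TruSeq stranded, per the labels' protocols. The unit is a signal that the authors had scaled before the table was deposited, in a way not given in the sources used here; 0 per-sample columns were unused. No receptor RNA is listed whole: its reads fall under its V, J and constant segments. Positions and sequences are those of GENCODE M21.

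For each tissue limma 3.58.1 (R 4.3.3) fitted log2(value + 1) over all 5 groups, with a trended, robust prior, for genes reaching 1 in 3 marrow or 2 spleen libraries. Changes are on this scale, which understates those of low genes. A model of all 37 libraries (filter 2) gave the difference between tissues. Adjustment by Benjamini-Hochberg covered all tested genes, with a threshold of 0.05. Count tests were not run, since the unit is not a count. Depth came from steps between low values with an assumed fragment of 200 bases. J reads are values of J segments with a single transcript divided by the worth of 1 read. Of 102 sets of J values of equal length, 90 (88.2%) were whole within 0.02. The scripts were tested on simulated data.

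Members and lists were chosen with earlier results of these data known. Named were the top 3 members by mean per chain and kind, up to 5 called members per direction and comparison, gamma and delta members, segments of invariant receptors and members next to the rule's limit. Alternatives were other scalings, pseudocount 0.1, no filter, only the groups compared and each library left out; leaving out the 5 steep-slope spleen libraries was chosen after seeing the data.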

Additional observations from a re-analysis of the deposited data

Results flagged for a closer look

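In 84 checks of a library against the others of its group, 5 stood apart, and chance flags about 1 in 20 groups. These were the summed alpha J value of rested spleen D8 (97.04), Trac in control spleen C1 (166), Trdc in control spleen C1 (2.86), the ratio of Trac to Trbc2 in rested marrow D2 (0.710) and the alpha J reads per M of 10-defeat spleen D4 (0.949). The 10-defeat effect differed between spleen and marrow, by the interaction test, for 37 members; of the 36 with a lower effect in spleen, 34 were under 1 in every control marrow library and had little room to fall there. Those named were Traj18 (-2.44), Traj32 (-3.08), Traj4 (-2.51), Traj40 (-2.30), Traj6 (-2.73) and, in the other direction, Trdv2-2 (2.33).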

How the results depend on the processing

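Members called moved with the settings as follows. In marrow after 4 defeats the count of 5 became 0 with quantile normalization, 1 with equal totals, 3 with median ratios, 2 with pseudocount 0.1 and 8 with only the groups compared, and 0 to 5 with single libraries left out. In marrow after 10 defeats 13 became 23 with no filter and 7 to 15 with libraries left out. Rested marrow against 10 defeats moved from 1 to 2 with equal totals or pseudocount 0.1, to 3 with no filter, and over 1 to 4 with libraries left out. In spleen after 1 defeat 1 became 2 with quantile normalization or equal totals, 0 with pseudocount 0.1, 3 with no filter, 7 with only the groups compared, 8 without the steep-slope libraries, and 1 to 4 with libraries left out. After 4 defeats 0 became 1 without the steep-slope libraries and 0 to 7 with libraries left out. After 10 defeats 81 became 48 with quantile normalization (1 of them higher), 10 without the steep-slope libraries and 58 to 88 with libraries left out. Rested spleen against control ranged over 3 to 14 and against 10 defeats over 0 to 6 with libraries left out. The interaction count of 37 became 21 with pseudocount 0.1, 7 without the steep-slope libraries and 23 to 49 with libraries left out; the causes were not tested.

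With a replicate block by mouse code the interaction count was 40; the correlation between libraries of the same code was 0.01, a shared number only. Of 1250 checks on 79 single-gene results, 994 kept their side of the threshold, 241 fell short of it, 15 newly passed and 0 reversed. Depth limits the J segments, since 37.1% of their values above 0 are 1 read, and it limits V segments of low value too.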
